A study of Mus musculus with 6 samples.

Results

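The genes described here are 44 genes of the cell division cycle, taken by gene symbol from the 37475 genes of the deposited table. They fall into 7 genes that act in G1, 21 genes of S phase and 16 genes of mitosis. Their RNA was sequenced from the spinal cord of wild-type mice whose cord had been bruised by a contusion at T10, with tissue taken on day 3. After injury, 3 mice were injected intraperitoneally each day with saline vehicle (phosphate-buffered, PBS) and 3 with syringin, a plant phenylpropanoid glucoside, at 50 mg/kg. All 6 animals were injured, and uninjured cord was not analysed here. Each library came from polyadenylated RNA of whole tissue, so more dividing cells and more of these transcripts per cell cannot be told apart.

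A cell enters division when growth signals raise D-type cyclins, which with Cdk4 and Cdk6 release E2F transcription factors from the retinoblastoma protein. E2F factors bind promoters of genes for DNA replication, while a later set of genes for chromosome segregation is transcribed through the CHR element, bound by the MuvB complexes DREAM and B-Myb/FoxM1, often beside CCAAT boxes bound by NF-Y. In the injured spinal cord, cells known to divide include microglia, infiltrating myeloid cells, oligodendrocyte progenitors, astrocytes, endothelial cells and fibroblasts.

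Of the 44 genes, 37 had a promoter in the RefSeq table of GRCm38.p6, covering 250 bases before the transcription start and 50 from it on, and Ccnd1, Ccne2, Gins1, Gins2, Mcm4, Aurkb and Ccna2 had none. These windows were searched on both strands for E2F motifs (TTTCCCGC, TTTGGCGC, TTTGCCGC or TTTCGCGC), the CHR motif (TTTGAA) and the CCAAT motif. The stretches below show E2F matches of S phase genes that lie before the start, in capitals, for the 4 genes with the smallest p in the comparison that have such a match. Mcm7 holds a further E2F match after the start, from base 17 to 24, which is not shown. In Mcm5 and Mcm6 the matches of both strands overlap and form 1 run of capitals.
Mcm5, GRCm38.p6 chr8:75109344-75109379, plus strand: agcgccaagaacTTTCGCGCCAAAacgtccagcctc
Uhrf1, GRCm38.p6 chr17:56304116-56304147, plus strand: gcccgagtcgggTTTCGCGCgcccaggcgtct
Mcm7, GRCm38.p6 chr5:138172029-138172060, minus strand: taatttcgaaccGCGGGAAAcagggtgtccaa
Mcm6, GRCm38.p6 chr1:128359733-128359827, minus strand: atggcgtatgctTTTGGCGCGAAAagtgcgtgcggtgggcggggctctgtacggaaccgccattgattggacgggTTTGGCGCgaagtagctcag

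The mitosis genes chosen by the same rule carry the CHR motif, and here the capitals mark CHR and CCAAT matches on either strand (ATTGG is CCAAT on the other strand). Outside the stretches shown, Hmgb2 holds a further CHR match from base -218 to -213 and Cdk1 an E2F match from base -131 to -124. Further CCAAT matches there begin at bases -243 and -198 in Hmgb2, at -208 in Cdk1, and at -188, -166 and -141 in Mki67.
Hmgb2, GRCm38.p6 chr8:57511758-57511842, plus strand: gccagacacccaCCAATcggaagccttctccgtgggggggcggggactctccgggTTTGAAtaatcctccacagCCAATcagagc
Cdk1, GRCm38.p6 chr10:69352913-69353004, minus strand: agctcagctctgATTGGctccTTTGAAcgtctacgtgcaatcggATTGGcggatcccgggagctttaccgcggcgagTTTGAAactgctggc
Cdc20, GRCm38.p6 chr4:118437344-118437408, minus strand: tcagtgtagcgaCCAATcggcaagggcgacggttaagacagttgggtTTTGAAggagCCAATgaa
Mki67, GRCm38.p6 chr7:135716460-135716507, minus strand: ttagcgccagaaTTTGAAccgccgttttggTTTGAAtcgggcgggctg

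The 2 classes carried different motifs. An E2F motif lay in 11 of 18 S phase promoters (61.1%) and in 1 of 14 mitosis promoters (7.14%), against 4.13% of the 13937 tested genes with a promoter. The CHR motif lay in 11 of 14 mitosis promoters (78.6%), in 1 of 18 S phase promoters (5.56%) and in 15.3% of tested genes. CCAAT was frequent in both, in 13 of 14 mitosis promoters (92.9%) and 15 of 18 S phase promoters (83.3%), against 42.3% of tested genes. Of the 5 G1 promoters, 1 held an E2F motif, 1 held CCAAT and 0 held CHR. Only 1 pair of matches to different motifs overlapped, an E2F and a CCAAT match in Mcm7. Across all 27025 genes of the promoter table the shares were 2.6% for E2F, 20.2% for CHR and 41.1% for CCAAT. A match describes letters in the window and is not evidence of binding.

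**Figure D1:**
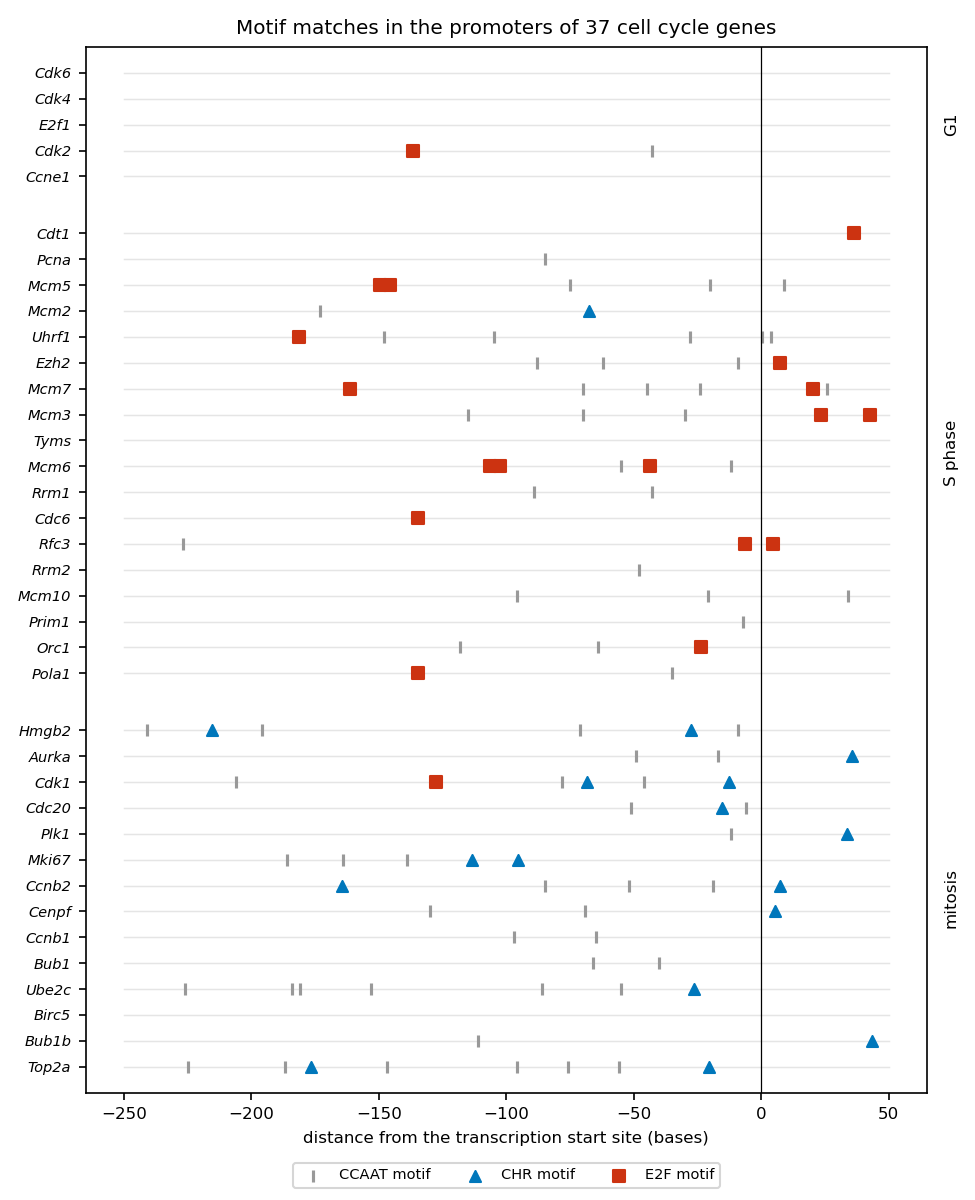
Positions of E2F (squares), CHR (triangles) and CCAAT (bars) matches by distance in bases from the transcription start, for 37 cell cycle genes, with all promoters of a gene on 1 line. Squares lie mostly on S phase lines (11 of 18 genes) and triangles mostly on mitosis lines (11 of 14 genes).

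In the comparison of syringin with PBS, 9 of the 44 genes rose and 0 fell, while of all 22114 tested genes 5.01% passed the test, 1.62% higher and 3.39% lower. The 9 are Ccnd1 and Cdk6 of G1, Cdt1, Pcna, Mcm5, Mcm2, Uhrf1 and Ezh2 of S phase, and Hmgb2, grouped with mitosis. A gene was counted at a Benjamini-Hochberg adjusted p under 0.05 in edgeR's quasi-likelihood test over all tested genes. All 44 genes passed the filter on low counts, and all 44 had a fold change above 0, as 50.9% of tested genes did. The median log2 fold change was 0.64 over the 44 genes (range 0.25 to 0.90) and 0.01 over all tested genes. The other 35 genes did not pass, although 38 of the 44 had an unadjusted p under 0.05 with a higher level, against 11.5% of tested genes. In 29 of the 44 every syringin library lay above every PBS library, against 14.7% of tested genes.

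Levels below are CPM, counts scaled to a common library total and corrected for library composition, in the order of libraries 1, 2 and 3, and fold changes are log2 of syringin over PBS with the standard error.

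Among the G1 genes 2 of 7 rose and the median log2 fold change was 0.46. Ccnd1, which encodes cyclin D1, the partner of Cdk4 and Cdk6 (ENSMUSG00000070348, chromosome 7, 144483668 to 144493662, minus strand in the deposited table), was at 185, 241 and 187 CPM under PBS and at 307, 354 and 358 CPM under syringin. All syringin libraries lay above all PBS libraries, and the means were 205 ± 31.9 and 339.8 ± 28.7 CPM (SD, n = 3 each). The log2 fold change of Ccnd1 was 0.73 ± 0.13 (edgeR, adjusted p = 0.0247). Cdk6 was at 17.6, 19.1 and 18.5 CPM under PBS and at 25.6, 32.8 and 25.8 CPM under syringin, again without overlap (log2 fold change 0.61 ± 0.13, edgeR adjusted p = 0.0405). Cdk4, the other kinase partner, was at 73.2, 98.4 and 91.8 CPM against 109.0, 139 and 136 CPM and did not pass (0.54 ± 0.14, edgeR adjusted p = 0.0668). E2f1, an activating E2F factor, was at 13.4, 17.7 and 15.2 CPM against 18.7, 24.7 and 20.1 CPM (0.46 ± 0.15, edgeR adjusted p = 0.127). In E2f1 as in Cdk4 the groups did not overlap. Cyclin E and its kinase, which act at the entry to S phase, had the lowest values: Ccne2 0.40 ± 0.20, Cdk2 0.39 ± 0.18 and Ccne1 0.25 ± 0.19 on the log2 scale, with overlapping groups and edgeR adjusted p of 0.281, 0.241 and 0.472.

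Among the S phase genes 6 of 21 rose, the median log2 fold change was 0.64, and in 16 the groups did not overlap. Cdt1, which with Cdc6 loads the MCM helicase on origins (ENSMUSG00000006585, chromosome 8, 123294754 to 123299867, plus strand in the deposited table), was at 13.9, 17.6 and 13.3 CPM under PBS and at 26.8, 25.1 and 26.2 CPM under syringin. The means were 14.9 ± 2.34 and 26.0 ± 0.825 CPM (SD, n = 3 each), a log2 fold change of 0.80 ± 0.13 with an edgeR adjusted p of 0.0228. The syringin libraries of Cdt1 were close to each other, and library 1 was the highest of the 6, which held for no other of the 44 genes. The MCM helicase subunits Mcm5 and Mcm2 rose too. Mcm5 was at 33.3, 47.3 and 37.3 CPM under PBS and at 56.5, 71.0 and 63.5 CPM under syringin (0.70 ± 0.15, edgeR adjusted p = 0.0412). Mcm2 was at 31.1, 43.1 and 33.2 CPM against 51.7, 64.7 and 56.1 CPM (0.68 ± 0.15, edgeR adjusted p = 0.0414). The other subunits had log2 fold changes of 0.59 for Mcm7, 0.71 for Mcm3, 0.62 for Mcm4 and 0.55 for Mcm6, all with groups apart and with edgeR adjusted p from 0.0511 for Mcm7 to 0.0782 for Mcm6.

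Pcna, the sliding clamp of the replication fork, was at 88.9, 118.8 and 109.8 CPM under PBS and at 143.9, 181 and 169.6 CPM under syringin. The groups lay apart, and the log2 fold change was 0.64 ± 0.13 (edgeR, adjusted p = 0.0405). Uhrf1, which helps maintain DNA methylation after replication, was at 31.5, 43.0 and 36.1 CPM against 52.9, 76.3 and 59.5 CPM (0.77 ± 0.16, edgeR adjusted p = 0.0418). Ezh2, the histone H3K27 methyltransferase of Polycomb complex PRC2, was at 24.9, 25.5 and 26.2 CPM against 31.6, 41.6 and 39.0 CPM (0.55 ± 0.12, edgeR adjusted p = 0.0423). In both genes the groups lay apart. Rrm2, a subunit of ribonucleotide reductase, was at 33.3, 55.7 and 48.8 CPM against 45.3, 97.8 and 90.4 CPM. Syringin library 1 of Rrm2 lay below 2 PBS libraries, and the gene did not pass (0.76 ± 0.30, edgeR adjusted p = 0.173). Its partner subunit Rrm1 had 0.48 and thymidylate synthase Tyms 0.67 on the log2 scale. Of the licensing and fork genes, Cdc6 had 0.81, Gins1 0.79, Gins2 0.65, Orc1 0.56, Mcm10 0.48, Rfc3 0.45, Pola1 0.37 and Prim1 0.36, none of which passed.

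Among the mitosis genes 1 of 16 rose, the median log2 fold change was 0.67, and in 9 the groups did not overlap. Hmgb2, a chromatin protein abundant in dividing cells (ENSMUSG00000054717, chromosome 8, 57964941 to 57969033, plus strand in the deposited table), was at 48.0, 56.0 and 53.0 CPM under PBS and at 67.0, 81.6 and 86.0 CPM under syringin. The means were 52.4 ± 4.05 and 78.2 ± 9.92 CPM (SD, n = 3 each), and the log2 fold change was 0.58 ± 0.12 (edgeR, adjusted p = 0.0365). Hmgb2 had the smallest standard error of the class.

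Cdk1, Ccnb1, Aurka, Aurkb, Plk1 and Cdc20, which drive mitosis itself, had higher fold changes than Hmgb2, with larger errors. Cdk1, the mitotic kinase, was at 20.3, 25.6 and 26.8 CPM under PBS and at 28.6, 44.8 and 47.2 CPM under syringin (0.73 ± 0.20, edgeR adjusted p = 0.0779). Its cyclin Ccnb1 was at 19.3, 31.1 and 35.1 CPM against 31.9, 61.9 and 55.5 CPM (0.80 ± 0.29, edgeR adjusted p = 0.143). Syringin library 1 of Ccnb1 lay below PBS library 3, so the groups overlapped. The spindle kinase Aurka was at 10.1, 13.2 and 11.9 CPM against 14.7, 24.5 and 21.1 CPM (0.77 ± 0.20, edgeR adjusted p = 0.0701). Aurkb, the kinase of the chromosomal passenger complex, was at 12.8, 16.8 and 16.6 CPM against 18.6, 29.1 and 27.2 CPM (0.70 ± 0.19, edgeR adjusted p = 0.0795). In both kinases syringin library 1 lay closest to the PBS libraries. Plk1, a polo-like kinase, was at 17.5, 23.1 and 23.0 CPM against 24.2, 45.1 and 33.6 CPM (0.69 ± 0.22, edgeR adjusted p = 0.114). Cdc20, the activator of the anaphase-promoting complex, was at 15.7, 23.9 and 25.2 CPM against 26.9, 47.7 and 41.7 CPM (0.84 ± 0.24, edgeR adjusted p = 0.0916).

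The proliferation marker Mki67 was at 92.7, 101 and 108 CPM under PBS and at 110.7, 186 and 143 CPM under syringin. The groups lay apart by a small gap, and Mki67 did not pass (0.54 ± 0.18, edgeR adjusted p = 0.116). Top2a, which untangles sister chromatids, was at 67.6, 114 and 112 CPM against 98.8, 193 and 143 CPM, with overlap (0.57 ± 0.27, edgeR adjusted p = 0.253). Of the remaining mitosis genes, the ubiquitin-conjugating enzyme Ube2c had the highest log2 fold change of the 44, 0.90 ± 0.33, with overlapping groups (edgeR, adjusted p = 0.155). Ccna2 had 0.77, Bub1 0.65, Ccnb2 0.64, Cenpf 0.64, Birc5 0.55 and Bub1b 0.51 on the log2 scale, and none passed.

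**Figure D2:**
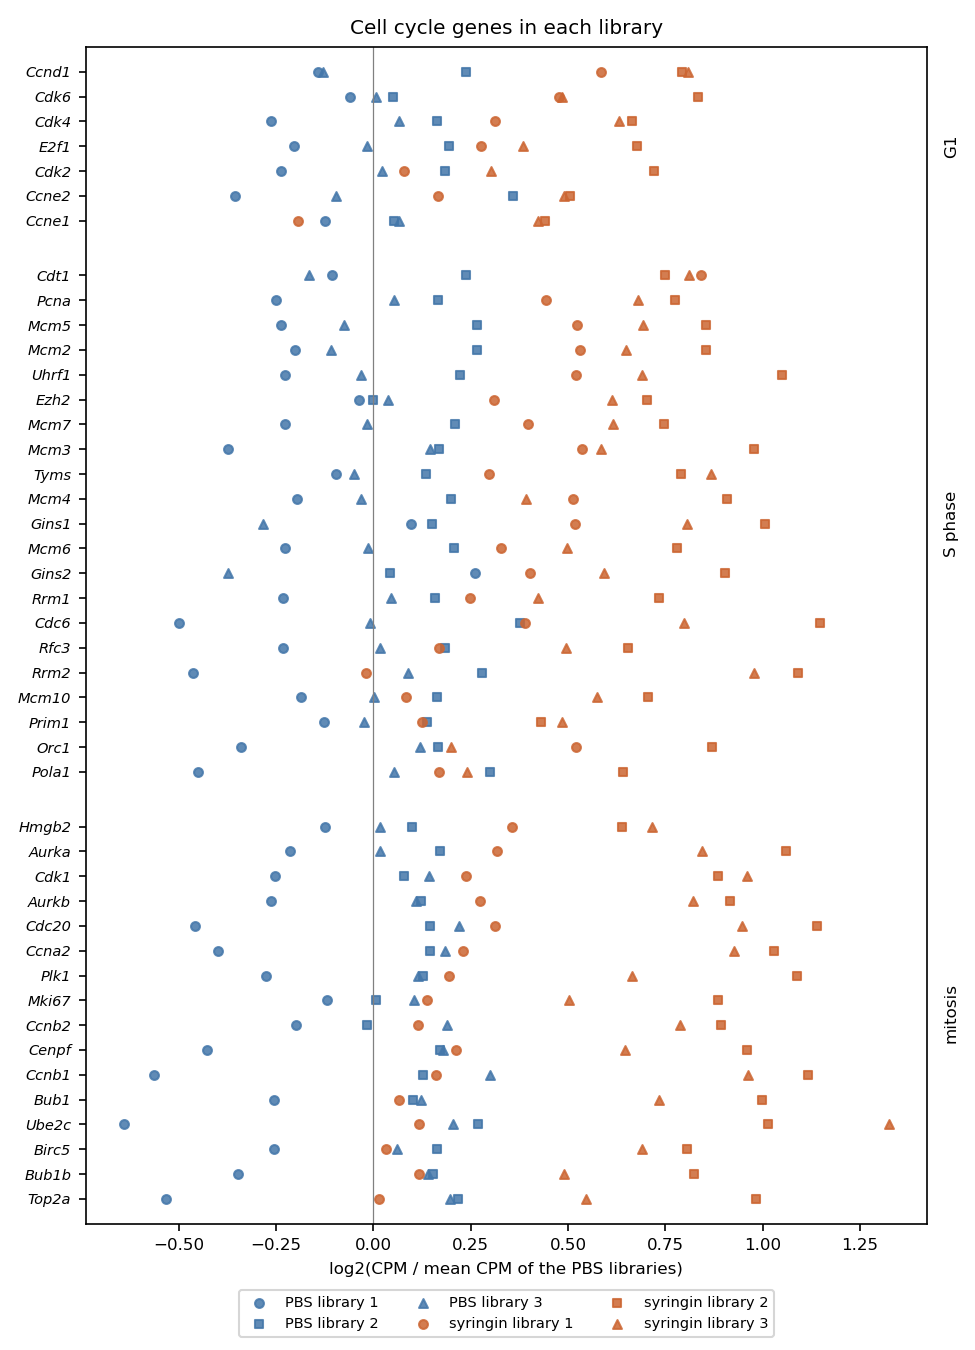
Level of each of the 44 genes in each library as log2 of CPM over the PBS mean, with circles, squares and triangles for libraries 1, 2 and 3, blue for PBS and orange for syringin. In the mitosis class syringin library 1 sits near PBS libraries 2 and 3, and PBS library 1 is the lowest of the 6 for all 16 genes.

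**Figure D3:**
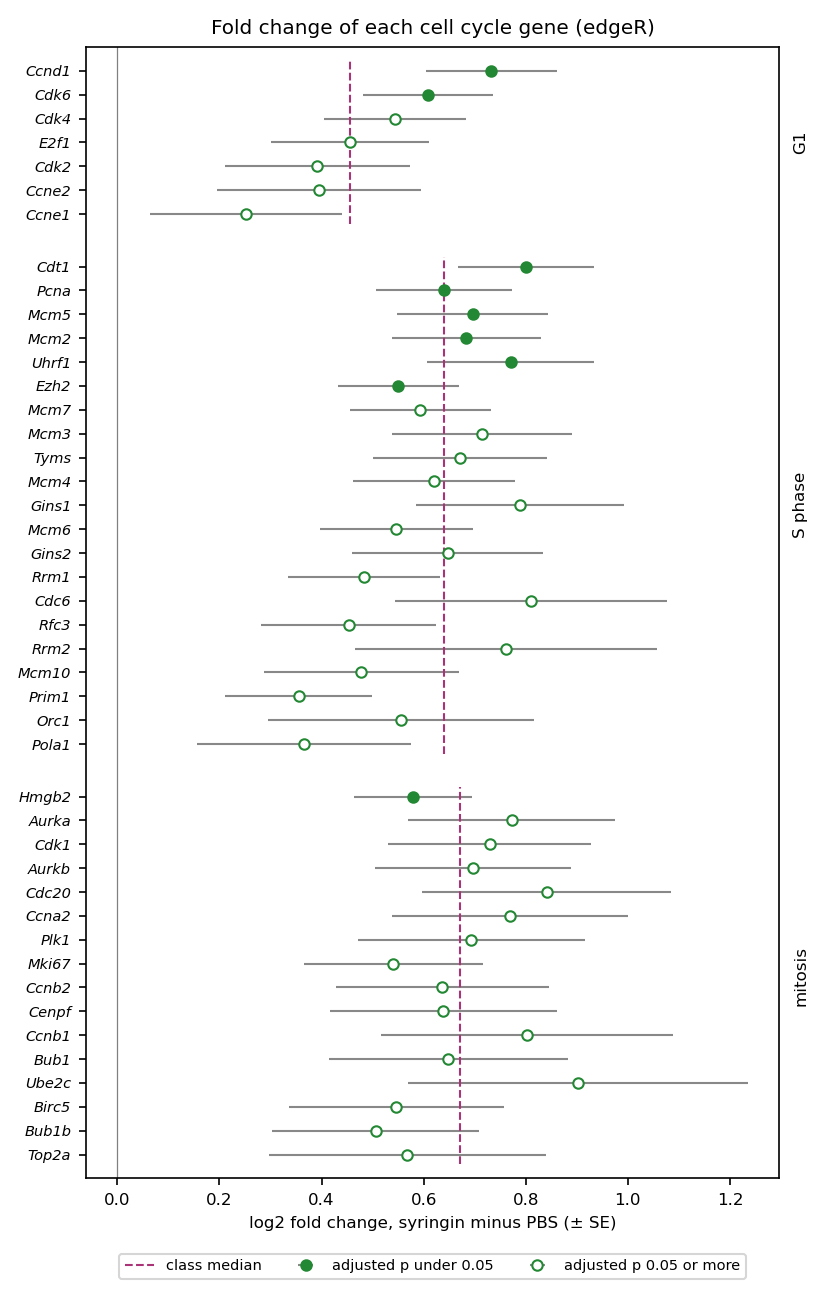
Log2 fold change (syringin over PBS) of each gene with its standard error, filled where the edgeR adjusted p is under 0.05, and the median of each class as a dashed line. All 44 points lie above 0, and 9 are filled.

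Per transcript length, Pcna and Ccnd1 were the most abundant of the 44 genes under PBS, with mean FPKM (fragments scaled by transcript length and library size) of 40.9 and 40.3, and 62.6 and 65.8 under syringin. Orc1, of the origin recognition complex, was the least abundant, at 0.603 and 0.870 FPKM.

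The classes were next compared library by library, as the mean over a class of each gene's log2 level relative to its mean in all 6 libraries. For G1 this was -0.43, -0.05 and -0.24 under PBS and 0.01, 0.43 and 0.27 under syringin. For S phase it was -0.50, -0.10 and -0.32 under PBS and 0.08, 0.53 and 0.31 under syringin. For mitosis it was -0.64, -0.18 and -0.17 under PBS and -0.13, 0.64 and 0.47 under syringin. The groups did not overlap in any class, but in mitosis syringin library 1 lay just above PBS libraries 2 and 3. The differences between group means were 0.48, 0.62 and 0.66 for G1, S phase and mitosis, and the SD over the 3 syringin libraries was 0.21, 0.23 and 0.41.

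The mitosis mean minus the S phase mean was -0.14, -0.08 and 0.16 under PBS and -0.21, 0.11 and 0.16 under syringin. These ranges overlap, as do those of the mitosis mean minus the G1 mean, at -0.21, -0.13 and 0.07 under PBS and -0.14, 0.21 and 0.20 under syringin. The S phase mean minus the G1 mean was -0.07, -0.05 and -0.08 under PBS and 0.07, 0.10 and 0.04 under syringin, so here the groups did not overlap, by a difference that is small beside those of the classes themselves and was not tested. PBS library 1 was the lowest of the 6 libraries for 40 of the 44 genes, and syringin library 2 the highest for 37. Syringin library 1 lay above all PBS libraries for 4 of 7 G1 genes, 16 of 21 S phase genes and 9 of 16 mitosis genes, while library 2 did so for all 44 and library 3 for 43.

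**Figure D4:**
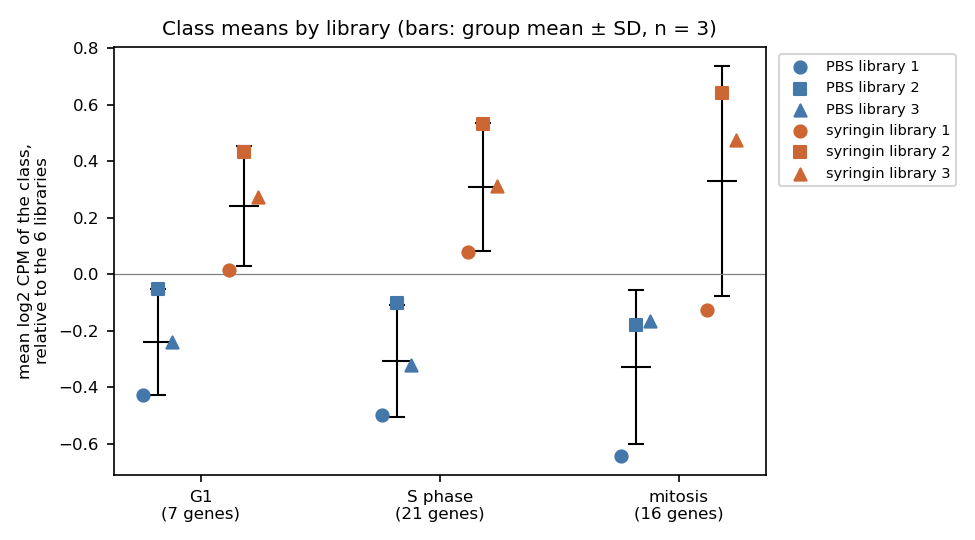
Mean log2 level of the G1, S phase and mitosis genes in each of the 6 libraries, relative to the mean of all libraries. Mitosis values spread from -0.64 to -0.17 under PBS and from -0.13 to 0.64 under syringin, the widest of the 3 classes.

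Within a class, genes with and without its motif had similar medians. The median log2 fold change was 0.59 over the 11 S phase genes with an E2F motif and 0.64 over the 7 without. It was 0.64 over the 11 mitosis genes with a CHR motif and 0.65 over the 3 without. Mcm5, Uhrf1, Cdt1 and Ezh2 rose with an E2F motif in the window, and Pcna and Mcm2 rose without one.

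Of 171 other tested genes of the cell cycle, 159 had a log2 fold change above 0, 5 rose, 1 fell, and the median was 0.46. Among 11 other G1 cyclins and activators 2 rose, the growth factor response gene Myc (0.80 ± 0.18, edgeR adjusted p = 0.0481) and Tfdp1, the dimer partner of E2F factors (0.42 ± 0.10, edgeR adjusted p = 0.0484). Myc was at 21.7, 18.9 and 16.5 CPM under PBS and at 35.4, 25.1 and 39.0 CPM under syringin, and unlike most of the 44 genes it was lowest, within the syringin group, in library 2. The other D-type cyclins did not pass, with log2 fold changes of 0.08 ± 0.10 for Ccnd2 and 0.32 ± 0.12 for Ccnd3. Among 17 inhibitors and repressors of the exit from G1 only the antiproliferative gene Btg1 rose (0.53 ± 0.10, edgeR adjusted p = 0.0306). The Cdk inhibitors Cdkn1a and Cdkn1b had 0.18 ± 0.26 and -0.25 ± 0.10 on the log2 scale and did not pass. E2f7, an inhibitory E2F factor of late S phase, had 0.90 ± 0.32 (edgeR, adjusted p = 0.14).

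Among 36 other origin and fork genes 2 rose, the chromatin assembly subunit Chaf1b (0.78 ± 0.16, edgeR adjusted p = 0.0408) and the clamp loader subunit Rfc5 (0.57 ± 0.12, edgeR adjusted p = 0.0424), and the median was 0.39. None passed among 18 genes of nucleotide supply (median 0.29), 18 of the fork checkpoint and recombination (median 0.50), 18 of the kinetochore (median 0.59) and 22 mitotic regulators (median 0.61). Their smallest edgeR adjusted p were 0.0628 for Shmt2, 0.0649 for Rad54l, 0.0892 for Bub3 and 0.0622 for Incenp. Among 29 genes of the spindle, condensin and cytokinesis (median 0.58) 0 rose and Cit fell, from 70.4 ± 7.04 to 43.4 ± 3.55 CPM (SD, n = 3 each, log2 fold change -0.70 ± 0.11, edgeR adjusted p = 0.0189). Cit encodes citron kinase, which acts in cytokinesis and is also expressed in neurons.

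Markers of cell types in the tissue moved between the same groups. Of 14 markers of infiltrating monocytes and macrophages 14 had a log2 fold change above 0 and 5 rose (F10, Clec4d, Lgals3, Arg1 and Thbs1), and their summed level was 3248 to 4250 CPM under PBS and 4559 to 11256 CPM under syringin. The sum was lowest in PBS library 1 and highest in syringin library 2, as for most of the 44 genes. In syringin library 2, Lyz2 and Gpnmb held 3673 and 2702 CPM of it. The 5 that rose did not all follow the sum: F10, Arg1 and Thbs1 were lowest in PBS library 2, and Clec4d and Lgals3 in PBS library 3. F10, Lgals3 and Thbs1 were highest in syringin library 2, Arg1 in library 1 and Clec4d in library 3. Of 9 neuronal markers 4 fell (Map2, Nefm, Nefl and Snap25), with sums of 3159 to 4038 and 1647 to 2481 CPM. Of 9 astrocyte markers 4 fell (Slc1a2, Gjb6, Mlc1 and Aldoc), with sums of 7912 to 9315 and 5167 to 7060 CPM. For 9 markers of homeostatic microglia 0 passed, and the sums overlapped, at 961 to 1141 and 734 to 1253 CPM, as did those of 9 markers of oligodendrocyte progenitors, at 1036 to 1189.9 and 997 to 1287 CPM. Of the microglia markers 7 had a log2 fold change below 0 (median -0.39). Of the progenitor markers 7 were above 0 (median 0.25) and 0 passed. In Cspg4, Olig2 and Sox10 every syringin library lay above every PBS library, and in Ptprz1 every syringin library lay below. Of 8 endothelial markers 8 had a log2 fold change above 0 (median 0.27) and 1 rose (Pecam1), with sums of 541 to 624 and 665 to 769 CPM. Of 9 neutrophil markers 1 rose (Mmp8), but 5 had a log2 fold change below 0 and the median was -0.34, with -1.70 for Ngp, -1.57 for Ltf and -1.31 for Camp, none of which passed. Of 7 Schwann cell markers 1 fell (Ncmap) and 6 were below 0, and of 8 erythroid and early marrow markers 1 fell (Mpo) and 6 were below 0, while 0 passed among 8 markers of pericytes and fibroblasts, 8 of T and B cells, 6 of ependymal cells and 7 of mature oligodendrocytes. Every marker of these lists had counts in at least 1 library. Markers of mature oligodendrocytes, neurons and astrocytes were abundant in all 6 libraries, as the labelled tissue holds. The part of cell type shares in the fold changes of the 44 genes was not tested.

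The libraries also differed in 8 markers of sensory ganglion neurons, which lie outside the cord, with a sum of 345 CPM in PBS library 1, sums of 276 and 130.2 CPM in libraries 1 and 3 of syringin, and 27.1 to 58.1 CPM in the other 3. Among the libraries with high sums, the syringin minus PBS difference of the class means was 0.57 for G1, 0.69 for S phase and 0.82 for mitosis (1 PBS and 2 syringin libraries). Among those with low sums it was 0.58, 0.74 and 0.81 (2 PBS and 1 syringin library). Each of these differences has a single library on 1 side, so no spread is at hand to judge it by. With the mean of these markers as a covariate in the edgeR model, a setting chosen after the data were seen, 36 of the 44 genes rose, as did 5.15% of all tested genes.

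The number of genes that passed changed as each library was left out. Leaving out any library also leaves fewer replicates, and the part of this in the change was not tested. Without PBS library 1, PBS library 3 or syringin library 3, 0 of the 44 genes passed in edgeR. Of all tested genes 0.202%, 0% and 0.158% rose in these fits. At an unadjusted p under 0.05 were 26, 31 and 28 of the 44. In either direction, so were 4328 of 22752, 3449 of 22804 and 4672 of 22822 tested genes. Without PBS library 2 or syringin library 2 the counts that passed were 2 and 1 of the 44, beside 0.0832% and 0.484% of all tested genes. Without syringin library 1 the count was 30, beside 3.57% of all tested genes. DESeq2 passed 32 of the 44 on all libraries, with 6.3% of its 18327 tested genes higher. The class medians moved less, over 0.34 to 0.62 for G1, 0.51 to 0.73 for S phase and 0.52 to 0.87 for mitosis as each library was left out. Of the 9 genes, Cdt1 passed in 15 of 19 alternative settings, Ccnd1 in 14 and Ezh2 in 12, and the other 6 in 13.

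**Figure D5:**
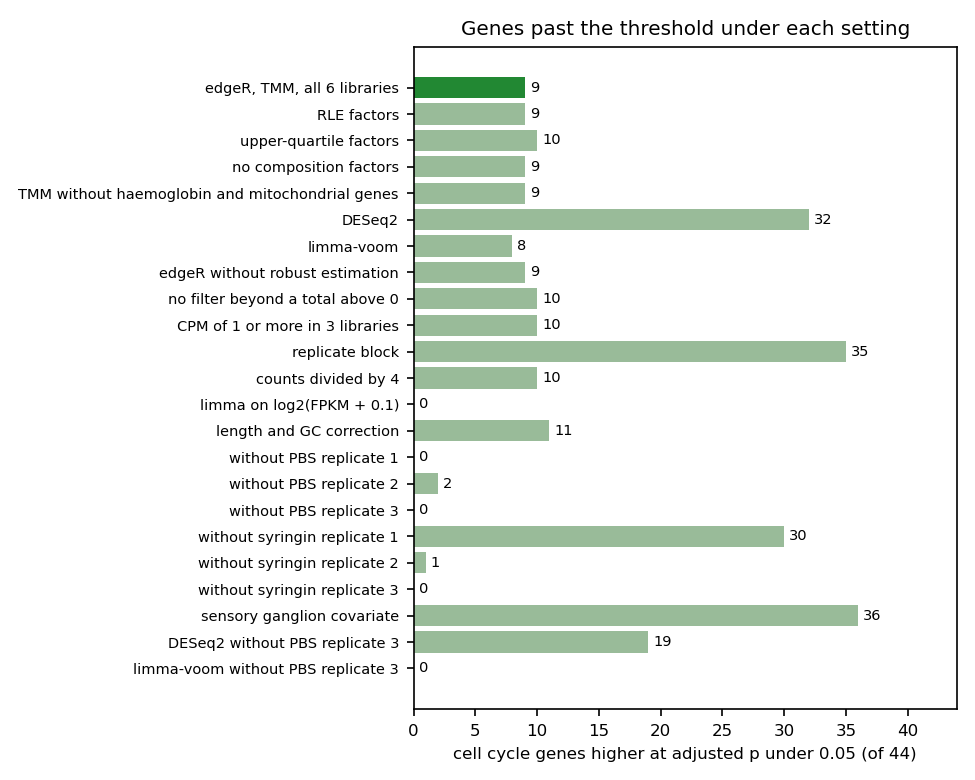
Number of the 44 genes called higher under syringin in the reported fit and in each alternative setting. The reported fit gives 9, DESeq2 32, and the fits without 1 library from 0 to 30.

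No gene of the 44 overlapped another counted gene on the same strand, but 11 overlapped one on the opposite strand: Ccnd1, Cdk4, Ccne2, Cdk2, Mcm7, Pcna, Gins2, Orc1, Ccna2, Plk1 and Cdc20. The sources used here do not give whether the counting used strand, so reads of the partners cannot be told apart for these genes. Pcna, Tyms, Ccnb1 and Ccnb2 each had a named pseudogene in the table that could share reads.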

How the data were processed

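Per the labels' protocols, TRIzol was used to extract RNA, and an Illumina TruSeq stranded kit turned its polyadenylated part into libraries. HISAT2, StringTie, GRCm38 and mm10 are named, without versions, per the submitters' processing notes. The authors deposited an estimated count and an FPKM value for each of 37475 genes and 6 libraries, and the estimated counts are whole numbers. The libraries summed to 65579117 to 78843034 counts, with 4.63% to 7.00% from mitochondrial genes. The value 4 was 1.51 times as frequent as the mean of 3 and 5, so 1 fragment may add about 4 counts. Set against a GRCm38 annotation (GENCODE M21), all 44 genes lay on the same chromosome, and 36 matched in span but only 1 in start position. The deposited coordinates of these genes thus mostly differ from GRCm38, the build named, and which build they follow is uncertain.

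Samples were grouped by treatment, with 3 biological replicates each. In R 4.3.3, edgeR 4.0.16 was used: filterByExpr at a minimum count of 10 and a minimum total of 15 kept 22114 genes, TMM factors ran from 0.965 to 1.03, and a robust quasi-likelihood fit had treatment as its term. P-values are two-sided, the threshold was a Benjamini-Hochberg adjusted p of 0.05, and 1108 genes (5.01%) passed, 359 higher and 749 lower. The biological coefficient of variation was 24.9% over all genes. Each standard error was obtained by dividing the size of the log2 fold change by the root of its F statistic. Class means used log2 CPM with a prior count of 2.

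The members, gene lists, motifs and settings were chosen with earlier results of these data known. Values per library are given for each gene that passed, for the 4 smallest p of each class and for 14 genes listed by name. Of each other cell cycle list, up to 4 genes that passed or else the gene of smallest p are named, with a few other genes, and the library values of Myc, chosen after their values were seen. Alternatives were other composition factors (RLE, upper quartile, none), TMM without haemoglobin and mitochondrial genes, DESeq2 1.42.0, limma-voom (limma 3.58.1), no robust estimation, other filters, the replicate number as a block, a correction for transcript length and GC content, limma on log2(FPKM + 0.1), counts divided by 4, and each library left out. No pair of libraries held identical counts.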

Additional observations from a re-analysis of the deposited data

How the results depend on the processing

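All settings gave 44 of 44 fold changes above 0, which is no sign of stability where the groups do not overlap, and the class medians moved by less than the spread of the libraries. The counts of genes passing moved more. Of the 44 genes 9 passed, against 32 with DESeq2, 35 with the replicate block, 0 with limma on log2(FPKM + 0.1) (29 at an unadjusted p under 0.05) and 0 to 30 with 1 library left out. In settings chosen after the data were seen it was 36 with the ganglion covariate, 19 with DESeq2 without PBS library 3 and 0 with limma-voom without it (29 at an unadjusted p under 0.05). Of all genes 1108 passed, against 2799 with DESeq2, 2557 with the replicate block and 0 to 1944 with 1 library left out. With FPKM 1 passed, and 4602 of 22716 genes had an unadjusted p under 0.05. In the settings chosen after the data were seen, 2586 of all genes passed with the covariate and 1346 with DESeq2 without PBS library 3. Of the 15908 genes tested in the latter, 2.99% passed as higher. With limma-voom without that library 0 of all genes passed (3532 at an unadjusted p under 0.05). Of the other cell cycle genes 5 rose, against 3 without composition factors, 67 with DESeq2, 2 with limma-voom, 3 without robust estimation, 9 with the CPM filter, 79 with the replicate block, 8 with counts divided by 4, 0 with FPKM, 18 with the length and GC correction and 0 to 49 with 1 library left out. In the added settings it was 84 with the covariate, 15 with DESeq2 without PBS library 3 and 0 with limma-voom without it. The 1 that fell became 0 with FPKM, 0 to 2 with 1 library left out and 0 with limma-voom without PBS library 3. With the length and GC correction 54% of genes that passed were higher, against 32.4%. The cause of these shifts was not tested. Whether the replicate numbers pair the samples is not settled. Same-numbered libraries had deviation correlations of 0.29, 0.12 and 0.05, and the 0.29 was the largest of all pairs across the groups. PBS library 3, however, correlated best with syringin library 2 (0.14). If 1 fragment adds about 4 counts, counting error is larger than the totals imply, which touches low genes such as Orc1 most.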
